A study of Mus musculus with 5 samples.

Results

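Cells expressing Col2a1 were described in 1 single-cell RNA sequencing (scRNAseq) library, which was made at day 5 after polytrauma from GFP+ cells of the Prx1 lineage in the muscle around the tibia. They were the retained cells of this library with at least 10 unique molecular identifiers (UMIs) of Col2a1, the gene of type II collagen. Cells were retained with 350 to 8000 detected genes, under 20% of UMIs on mitochondrial genes, at least 2000 UMIs and a barcode absent from the library labelled d3 post-polytrauma. The rule took 97 of 11485 retained cells (0.845%, exact binomial 95% interval 0.685 to 1.03), out of 34439 barcodes in the series. They were compared with the 10877 retained cells without a Col2a1 UMI, and 511 cells with 1 to 9 UMIs were described apart. All 5 libraries came from Prx1Cre;RosamTmG mice on a C57BL6/J background. In these mice Cre driven by a limb mesenchyme promoter switches a membrane Tomato reporter to membrane GFP in the labelled cells and in all their descendants. The mice were uninjured (d0), or were sampled 3 or 5 days after a non-stabilized tibial fracture, or 3 or 5 days after polytrauma, a fracture of the same kind with mechanical injury of the adjacent muscles. There is 1 library for each condition, with cells of 2 mice put together, and the mice were young adults, matched for age and sex between groups. The tissue taken was the muscle around the bone, and the periosteum and the marrow were left out.

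Chondrocytes are the cells of cartilage. They secrete a matrix in which fibrils of collagens II, IX and XI hold large aggregates of aggrecan, bound to hyaluronan by link protein, and the transcription factor Sox9 with its partners Sox5 and Sox6 activates many of the matrix genes. In a fracture callus cartilage forms as a template, its chondrocytes may enlarge (hypertrophy) and switch to collagen X, and bone then replaces the matrix.

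The library held 13641 barcodes and 204474562 UMIs, of which 12615 barcodes passed the limits on genes and mitochondrial UMIs and 11517 of these also held at least 2000 UMIs. It shared 944 barcodes with the library labelled d3 post-polytrauma, and 32 of the shared barcodes passed all other limits. That second library has 2001 barcodes in all. Cell numbers in the source data of the study go against its label and against that of the library labelled d5 post-fracture, which may be exchanged, so both are named here by their labels only. None of the 97 cells shared a barcode with any other library. The 97 cells had a median of 20275 UMIs (2786 to 57976) and 4138 genes, against 16034 UMIs and 3777 genes in the comparison cells. Of the 97 cells, 14 (14.4%) had a doublet score among the highest of the library, against 9.06% of the comparison cells, and the part of doublets in the values below was not tested beyond leaving these cells out.

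Col2a1 ran from 10 to 647 UMIs per cell, with a median of 108, and 52 of the 97 cells held at least 100. Summed over the cells it reached 6236 counts per 1000000 UMIs (CPM, exact Poisson 95% interval 6132 to 6341). The 97 cells held 95.3% of the 14534 Col2a1 UMIs of the retained cells, so that a small number of cells carried nearly all of this transcript. Of the cells below the limit, 439 held 1 UMI, 35 held 2 UMIs and 37 held 3 to 9 UMIs. A single UMI was also found in cells with hematopoietic genes. Among 103 cells with at least 2 of 9 hematopoietic genes, 4 had a Col2a1 UMI (3.88%, 1.07 to 9.65), against 5.31% (4.90 to 5.73) of the 11382 other cells, at median depths of 16470 and 16152 UMIs. The intervals overlap, but with 4 such cells the first is wide. The comparison could thus not tell the share of cells with a Col2a1 UMI from that background. With at least 3 of the 9 genes required, 1 of 31 cells had a Col2a1 UMI (3.23%, 0.0816 to 16.7). Whether all of the 103 cells are hematopoietic was not tested. One of the 103 cells held 15 Col2a1 UMIs and is among the 97. Cells with 1 or 2 UMIs were kept out of both groups. Just below the limit, 11 cells with 6 to 9 UMIs had 756 CPM of Acan, 165 CPM of Col9a3 and no UMI of Hapln1. Just above it, 10 cells with 10 to 13 UMIs had 677 CPM of Acan, 174 CPM of Col9a3 and 84.6 CPM of Hapln1.

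**Figure D1:**
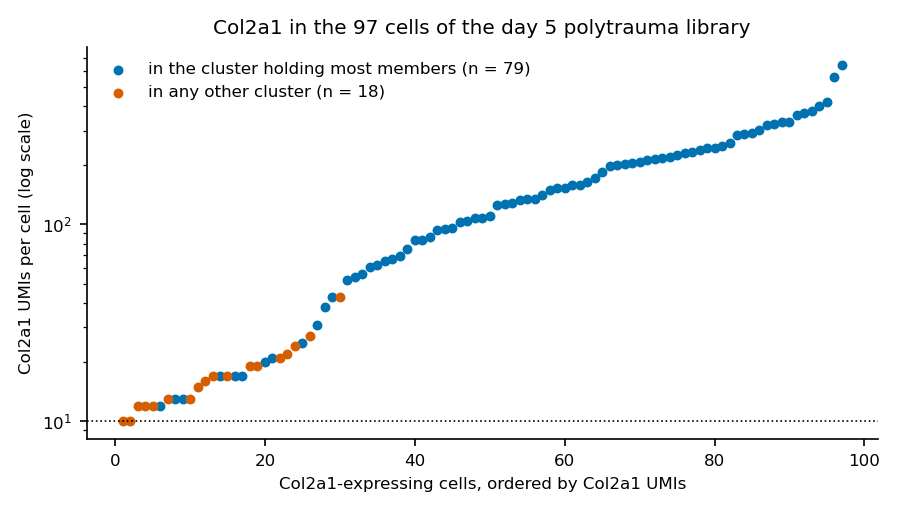
Col2a1 UMIs per cell (vertical axis, log scale) in the 97 cells of the day 5 polytrauma library, ordered from lowest to highest, with the limit of 10 UMIs as a dotted line. The 18 cells outside the cluster that holds most of the cells (orange) lie at 10 to 43 UMIs, while the 79 cells of the cluster (blue) reach from 12 to 647.

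The cells carried the other marker genes of cartilage. The markers given for them beside Col2a1 (ENSMUSG00000022483, chromosome 15 from 97975602 to 98004695 on GRCm38) were Acan (ENSMUSG00000030607, chromosome 7 from 79053483 to 79115099), the gene of aggrecan, and Fgfr3 (ENSMUSG00000054252, chromosome 5 from 33721674 to 33737068), a receptor that restrains chondrocyte division in the growth plate. Acan UMIs ran from 0 to 200 per cell (median 43) and were found in 93 of 97 cells. Fgfr3 ran from 0 to 12 (median 2) and was found in 75. Of 8 cartilage genes other than Col2a1 (Acan, Fgfr3, Col9a1, Col9a3, Col11a2, Hapln1, Matn3 and Cnmd), at least 4 were detected in 88 of 97 cells, all 8 in 61 and none in 4. After each cell had been thinned to 2000 UMIs, at least 4 of the 8 were seen in 75 of 97 cells (77.3%, 67.7 to 85.2). None of the 10877 comparison cells reached 4, a count that leaves room for at most 0.0276%. Without thinning they were detected in 37 comparison cells (0.340%).

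Every gene value below comes from the cells that the rule chose on 1 of their own genes in 1 library, so the values are a description, with no test and no p-value. A gene was called higher or lower where its CPM, averaged over both groups, was at least 10 and log2((CPM in the 97 cells + 1)/(CPM in the comparison cells + 1)) was at least 1 or at most -1. Of 7535 genes past the minimum, 324 were higher (4.3%) and 557 were lower (7.39%) in the 97 cells, and the median log2 ratio of all of them was 0.0017. Intervals cover counting error only, and none covers differences between mice or cells. Of the 324 higher genes 36 were on 5 lists of cartilage genes, Col2a1 itself among them, and of the 557 lower genes 4 were. Without the cells of the highest doublet scores, 83 of the 97 cells were left, with 370 genes higher and 661 lower. The counts were 725 and 1037 with each cell thinned to 2000 UMIs, and 734 and 1069 with cells that held at least 2 mitosis genes left out of both groups. Of the 324 higher genes, 143 had under 10 CPM in the comparison cells and passed the minimum only through the 97 cells, and of the 557 lower genes 209 passed it only through the comparison cells. Genes of the first kind that are rare in the comparison cells could only be called higher, so the counts of higher list genes below are no support for a pattern.

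All 7 genes on the list of cartilage collagens and link protein beside Col2a1 were higher, with a median log2 ratio of 7.23, and 5 of them passed the minimum only through the 97 cells. Hapln1, the gene of link protein, reached 1183 CPM against 0.651, a ratio of 1819 (1518 to 2198), and its UMIs ran from 0 to 179 per cell with a median of 22. Col9a3, of the fibril-associated collagen IX, stood at 1385 against 1.71 CPM (ratio 808, 721 to 909) and was found in 88 cells, with a median of 34 UMIs and at most 91. The other collagen IX genes were Col9a1 at 655 against 3.36 CPM and Col9a2 at 488 against 6.89. These genes were nearly absent from the comparison cells, where 2.29% of cells held a UMI of Col9a3 and 0.974% one of Hapln1. Col11a2 stood at 548 against 2.36 CPM. The other chain gene of collagen XI, Col11a1, was higher (1953 against 153 CPM, ratio 12.7) but was found in 58.4% of comparison cells too. Col27a1, of a fibrillar collagen of cartilage, stood at 494 against 93.8 CPM.

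Of 14 genes on the list of cartilage proteoglycans and matrix proteins 10 passed the minimum and were higher, but 6 of the 10 passed it only through the 97 cells. Acan stood at 2076 against 53.5 CPM, a ratio of 38.8 (37.5 to 40.2). Comp, whose pentameric product binds collagens, stood at 1584 against 77.8 CPM, and its per-cell UMIs ran from 0 to 441 with a median of 22. Matn3, a matrilin of the cartilage filament network, stood at 472 against 2.66 CPM, Snorc, a small chondrocyte proteoglycan, at 309 against 0.185, Cnmd, the gene of the antiangiogenic chondromodulin, at 360 against 0.899, and Scrg1 at 237 against 0.212. Snorc was uneven, with a median of 3 and a maximum of 63 UMIs, and 32 of the 97 cells had none. Ucma, known for the outer zones of growth plate cartilage, stood at 188 against 0.793 CPM and was found in 52 cells. Fmod, the small leucine-rich proteoglycan fibromodulin, stood at 574 against 73.4 CPM, Matn4 at 129 against 14.8 and Chad, of chondroadherin, at 30.2 against 0.0952. The 4 genes under the minimum were Mia at 18.5, Epyc at 4.50, Matn1 at 4.05 and Cytl1 at 1.80 CPM. Matn1, a matrilin of mature cartilage, was thus found in 5 of the 97 cells only.

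**Figure D2:**
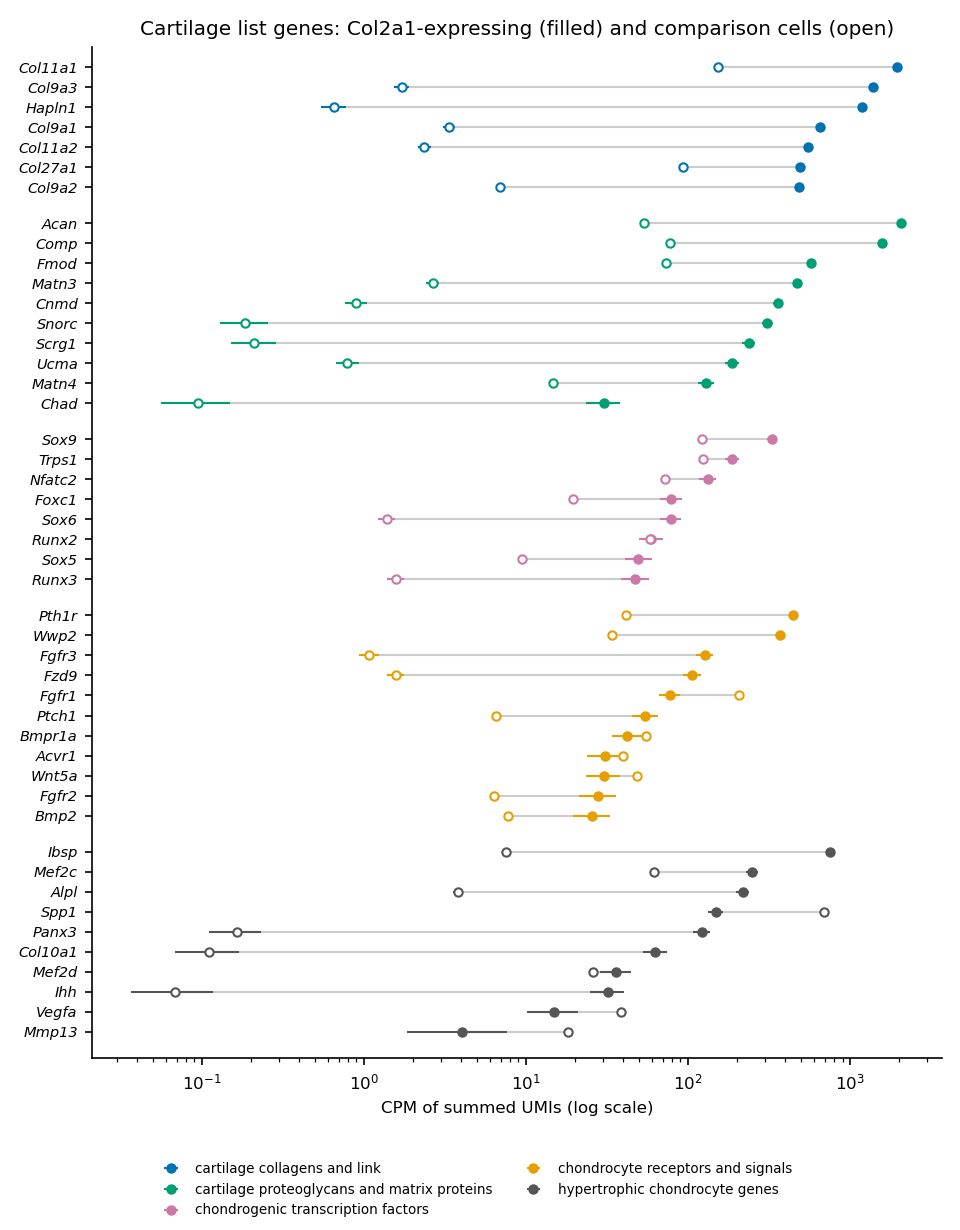
CPM of summed UMIs (horizontal axis, log scale) of the tested genes of 5 cartilage lists in the 97 cells (filled) and in the 10877 comparison cells (open), with exact Poisson 95% intervals. All genes of the collagen and matrix protein lists lie to the right in the 97 cells, while Runx2 is at 59.4 and 58.6 CPM. Spp1, Vegfa, Mmp13 and Fgfr1 lie to the left, as do Bmpr1a, Acvr1 and Wnt5a, which are not past the fold.

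Of 14 chondrogenic transcription factor genes, 8 passed the minimum and 5 were higher, 3 of which passed only through the 97 cells. Sox9 stood at 331 against 122 CPM (ratio 2.70, 2.50 to 2.91), a smaller factor than for the collagen genes, and 63.8% of the comparison cells held a UMI of it. Its UMIs ran from 0 to 27 per cell with a median of 6, and 91 of 97 cells had at least 1. Its partners stood further apart, with Sox6 at 78.4 against 1.39 CPM (ratio 56.5) and Sox5 at 49.5 against 9.44. Runx3, which acts with Runx2 in chondrocyte maturation, stood at 47.3 against 1.57 CPM, and Foxc1 at 78.8 against 19.4. Runx2, needed for hypertrophy and for osteoblasts, was at 59.4 and 58.6 CPM in the 2 groups, a ratio of 1.02 (0.848 to 1.21). Trps1 (187 and 123 CPM) and Nfatc2 (132 and 72.4) were not past the fold. Foxa3, a factor of hypertrophic chondrocytes, fell under the minimum with 8.11 CPM in 11 cells.

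Of 20 chondrocyte receptor and signal genes, 11 passed the minimum, of which 7 were higher and 1 was lower, and 5 of the 7 passed only through the 97 cells. Pth1r, the receptor of parathyroid hormone-related peptide, stood at 448 against 41.3 CPM (ratio 10.9, 10.2 to 11.6), with 0 to 90 UMIs per cell and a median of 5. Fgfr3 stood at 127 against 1.08 CPM and Fzd9, a Wnt receptor, at 106 against 1.57. Fgfr2 was also higher (27.9 against 6.36 CPM), while Fgfr1, the fibroblast growth factor receptor most common in mesenchyme, was lower at 77.5 against 208. Of the comparison cells 89.4% held an Fgfr1 UMI and 1.80% an Fgfr3 UMI, while 52 of the 97 cells held Fgfr1 and 75 held Fgfr3. Wwp2, a ubiquitin ligase and the host gene of a cartilage microRNA, stood at 369 against 33.9 CPM, Ptch1, a hedgehog receptor that is also a hedgehog target, at 54.5 against 6.59, and Bmp2 at 25.7 against 7.78. Gdf5, a signal of developing joints, was under the minimum, with 17.6 CPM in 18 cells against 0.201.

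Of the 11 genes of hypertrophic chondrocytes 10 passed the minimum, with 6 higher and 3 lower. Of the 6, 5 passed only through the 97 cells, and of the 3, 1 passed only through the comparison cells. The higher genes were Ibsp, Panx3, Col10a1, Alpl, Ihh and Mef2c, and most of them were confined to some of the cells. Panx3, a channel of prehypertrophic chondrocytes and osteoblasts, stood at 122 against 0.164 CPM and was found in 59 cells, and Alpl, the phosphatase of mineralizing cells, at 218 against 3.80 CPM in 61 cells. Col10a1, the collagen of hypertrophic cartilage, stood at 62.6 against 0.111 CPM but was found in 14 cells, and 1 cell held 87 of its 139 UMIs. Ihh, the hedgehog ligand of prehypertrophic chondrocytes, stood at 32.0 against 0.0688 CPM in 7 cells, with at most 29 UMIs. Ibsp, of bone sialoprotein, rested on few cells. It stood at 751 against 7.54 CPM, but 20 cells had a UMI of it and 1 cell held 985 of 1667 UMIs, without which its log2 ratio was 5.19 in place of 6.46. Spp1, of osteopontin, was lower at 148 against 687 CPM, Vegfa at 14.9 against 38.9 and Mmp13, the collagenase of late hypertrophy, at 4.05 against 18.2. Mmp13 was found in 2 of the 97 cells and its log2 ratio was 0.15 when cells were thinned. That of Vegfa was -0.03 without the cells that held at least 2 mitosis genes.

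Ihh or Col10a1 was detected in 17 of the 97 cells, and 4 cells had both. All 7 cells with Ihh also held Acan, Sox9, Fgfr3, Pth1r, Alpl, Panx3 and Sp7, the last a factor of osteoblasts and prehypertrophic chondrocytes that was found in 40 of 97 cells. None of the 7 held Mmp13. The 17 cells had 10946 CPM of Col2a1 (10633 to 11266), against 5128 (5024 to 5234) in the other 80, and 1024 against 313 CPM of Pth1r, 312 against 76.8 of Panx3 and 433 against 206 of Mef2c. Their dividing-cell genes were at lower levels, with Mki67 at 42.6 (25.2 to 67.3) against 115 CPM (100 to 132) and Top2a at 96.97 against 164. Runx2 stood at 56.8 and 60.1 CPM, and Ucma at 96.97 against 210. The 17 cells had a median of 24408 UMIs and the other 80 of 19994. All 17 were among the 79 cells of the cluster that holds most of the 97, which had 7592 CPM of Col2a1. The other 80 included the 18 cells outside that cluster, which had 733 CPM. The part of depth in which cells show these rare transcripts was not tested, nor that of the cluster in these differences.

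Genes for building sulfated proteoglycan chains were partly higher, with 8 of 17 tested genes past the fold and none lower. They included Papss2, which makes the active sulfate donor (303 against 23.1 CPM, ratio 13.1), Slc26a2, the sulfate transporter (263 against 22.9), Xylt1, which starts the chain (120 against 12.2), Chst11, a chondroitin sulfotransferase (94.1 against 12.9), and Slc35d1, a nucleotide sugar transporter (75.2 against 8.12). The polymerase genes Chpf (51.3 and 56.4 CPM) and Chpf2 (61.7 and 59.9) stood at like levels, and Csgalnact1 was at 94.1 and 135. Of 23 tested genes for collagen folding and secretion 1 was past the fold, Plod2, of a lysyl hydroxylase (592 against 268 CPM). Serpinh1, the collagen chaperone, was at 2182 and 2178 CPM. None of 17 tested glycolysis and hypoxia genes was past the fold in either direction. Over all 7535 tested genes 4.3% were higher and 7.39% were lower. The tested glycolysis and hypoxia genes had a median log2 ratio of 0.41, and Pgk1 was at 939 and 610 CPM, Pkm at 1492 and 934.

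None of 17 tested S-phase genes and 1 of 20 mitosis genes was past the fold, beside 4.3% higher and 7.39% lower of all 7535 tested genes. The 1 gene was Aurka, of a spindle kinase, at 38.3 against 17.5 CPM. Its log2 ratio was 0.20 after thinning to 2000 UMIs and 0.74 within strata of total UMIs. It was -0.46 without cells of at least 2 mitosis genes, but that split uses the list on which Aurka stands. The S-phase list had a median log2 ratio of 0.13. The mitosis list had a median of 0.50 and summed to 2039 against 1460 CPM, with 19 of its 20 genes at a log2 ratio above 0, beside a median of 0.0017 over all genes. Cdc20, an activator of the anaphase-promoting complex, was at 109.9 and 59.9 CPM, Hmgb2 at 462 and 295, Mki67 at 101 and 83.8 and Top2a at 151 and 127. At least 2 mitosis genes were detected in 80 of 97 cells (82.5%) and in 69.8% of comparison cells, and after thinning to 2000 UMIs in 44.3% (43 cells, 34.2 to 54.8) against 35.4% (34.5 to 36.3). The 80 cells had a median of 21557 UMIs and the 17 others of 16992. The 80 had 1872 CPM of Acan (1811 to 1934) and 371 of Pth1r (344 to 399), while the 17 others had 3363 (3160 to 3575) and 936 (830 to 1051). Intervals overlapped for Sox9 (324 against 374 CPM), Fgfr3 (121 against 171) and Postn (1558 against 1379). The part of depth in this split was not tested.

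Most genes on the list of mesenchymal progenitors were lower. Of 8 tested genes of mesenchymal progenitors 6 were lower and none was higher, beside 7.39% lower and 4.3% higher of all 7535 tested genes. Of the 6, Cd34 passed the minimum only through the comparison cells. Prrx1 (179 and 278 CPM) and Ly6c1 (25.2 and 42.2) were not past the fold. Cxcl12, a chemokine of mesenchymal stroma, stood at 42.3 against 312 CPM (ratio 0.136, 0.110 to 0.166), and while 88.8% of the comparison cells held a UMI of it, 57 of the 97 cells had none. Cd34 was at 5.40 against 42.8 CPM, Thy1 at 30.2 against 149 and Pdgfra, a receptor used to sort such progenitors, at 19.4 against 76.6. Of 11 fibrogenic genes 4 were lower, beside the same 7.39% of all tested genes. They were Col3a1 (3303 against 7156 CPM, ratio 0.462), Col5a1 (419 against 995), Tnc (269 against 619) and Fap (12.6 against 34.7). With the limit for Col2a1 set at 5 UMIs the log2 ratio of Col3a1 was -0.98, just short of the fold. Col1a1 was at 6014 and 9924 CPM and Postn at 1534 and 2592, neither past the fold. Col1a1 was found in each of the 97 cells, with 7 to 579 UMIs and a median of 118.

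The 12 genes with the lowest ratios included Isg15, the gene of a ubiquitin-like protein induced by interferon (1.80 against 26.3 CPM), Cxcl10, a chemokine gene also induced by interferon (11.3 against 100.1), Psmb8, of the immunoproteasome (4.05 against 43.2), Ifi203 (1.80 against 30.3) and Ifi27l2a (4.05 against 42.1). In the comparison cells these genes were uneven, with Isg15 in 15.3% of cells and Psmb8 in 40.3%. Dpt, of the matrix protein dermatopontin (13.1 against 135 CPM), Mfap4, of a microfibril-associated protein (23.0 against 188), and Col18a1, of a basement membrane collagen (3.15 against 34.6), were also among them, as were the complement gene C3, Rarres2, Ereg and the hemoglobin gene Hbb-bs (1.35 against 36.5). Among the 15 genes with the highest ratios 4 were on none of the lists, Pcp4 (155 against 0.143 CPM, in 38 cells), Fam180a (169 against 0.508, in 63 cells), Smpd3, a sphingomyelinase needed for normal skeletal mineralization (122 against 0.153, in 52 cells), and Ncmap (94.6 against 0.138, in 66 cells).

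Lists of markers of other cell types were summed over the 97 cells. The 9 hematopoietic genes summed to 10 UMIs over the 97 cells (4.50 against 23.6 CPM), led by Cd68, and Ptprc, Itgam, Cd74 and Laptm5 were at 0. The 5 endothelial genes summed to 3 UMIs, with Cdh5 and Emcn at 0, and all 6 myogenic genes were at 0. The 5 erythroid genes summed to 7 UMIs. Of the Schwann cell genes reported, Sox10 was at 0 and S100b, which chondrocytes also express, stood at 159 against 6.55 CPM. Of the adipocyte genes only Fabp4 was detected (15.3 against 59.3 CPM). Of the tendon genes Thbs4 was lower (109 against 486 CPM, with 150 of 241 UMIs in 1 cell), as was Tnmd (33.3 against 73.6), whose log2 ratio was -0.91 with a limit of 20 Col2a1 UMIs and -0.75 within strata of total UMIs, short of the fold. Scx was at 22.1 and 34.0 CPM, and under the minimum Mkx was at 11.7 and 5.56, Fbln7 at 10.4 and 4.01 and Kera at 7.21 and 7.31, while Chodl had no UMI. Of the 8 genes of pericytes and smooth muscle, Myh11 and Notch3 were at 0, Rgs5 had 1 UMI and Mcam 5. Acta2, Mylk and Des were lower, Des past the minimum only through the comparison cells. Cspg4, the gene of the proteoglycan NG2, was higher at 189 against 8.91 CPM (ratio 21.2). It was found in 80 of 97 cells and passed the minimum only through the 97 cells. Of 8 osteogenic genes Sp7 (31.5 against 0.587 CPM) and Dlx5 (29.3 against 1.70) were higher, both past the minimum only through the 97 cells, while Bglap2, Dmp1 and Sost were at 0 and Bglap had 1 UMI. The joint lining genes summed to 262 against 413 CPM, led by Prg4, and Clic5 was at 0. The GFP reporter was at 2439 CPM in the 97 cells and 2601 in the comparison cells, with 3 to 172 UMIs per cell over the 97, and the Tomato reporter was at 0.

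The classes of cells by Col2a1 UMIs showed how these genes changed together below and above the limit. From 0 through 1 to 2, 3 to 9, 10 to 29 and 30 or more UMIs (10877, 474, 37, 26 and 71 cells), Acan went from 53.5 through 101, 546 and 795 to 2484 CPM. Col9a3 went from 1.71 through 5.01, 83.6 and 261 to 1743 CPM. Hapln1 was at 0.651, 0.639 and 4.73 CPM in the first 3 classes (0.976 to 13.8 for 3 to 9 UMIs), and at 123 and 1521 in the last 2. Cells with 3 to 9 Col2a1 UMIs thus had a raised level of Acan but little link protein transcript. Sox9 was at 122, 136, 178 and 170 CPM in the first 4 classes, with overlapping intervals in the 3 to 9 and 10 to 29 classes, and at 382 in the last. Cxcl12 went from 312 through 272, 107 and 65.3 to 35.0 CPM and Cd34 from 42.8 through 43.6, 17.3 and 11.2 to 3.56, already low in the cells with 3 to 9 UMIs that the rule did not take. Col1a1 stood at 9924, 10500, 8938 and 9095 CPM in the first 4 classes and at 5034 in the last, and the levels of Col3a1 and Postn were likewise lowest in the cells with the most Col2a1. Scx, a tendon progenitor factor, was at 34.0, 65.4, 99.3, 29.9 and 19.6 CPM. At a fixed 2000 UMIs per cell Acan was detected in 8.06, 14.98, 51.4, 65.4 and 97.2% of the classes, Hapln1 in 0.138, 0.211, 0, 23.1 and 91.5%, and Scx in 5.30, 10.97, 18.9, 3.85 and 4.23%. Ibsp did not follow this order, with 807 CPM in the 3 to 9 class, of which 1 cell held 503 of 512 UMIs.

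**Figure D3:**
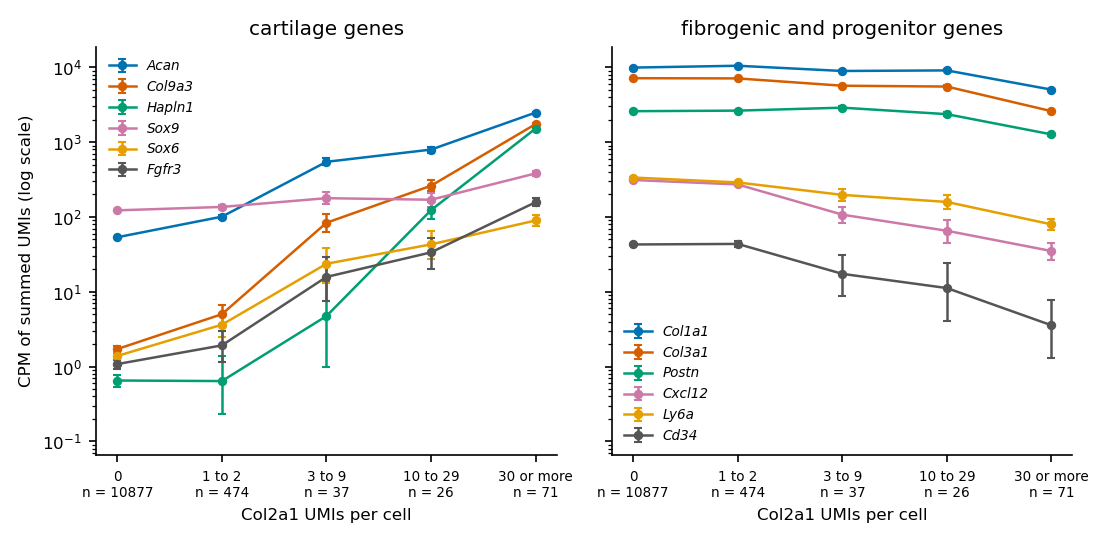
CPM of summed UMIs (vertical axis, log scale) of 6 cartilage genes and 6 fibrogenic and progenitor genes in cells grouped by their Col2a1 UMIs, with exact Poisson 95% intervals and the number of cells under each class. Acan is at 101 CPM in the 1 to 2 class and 546 in the 3 to 9 class, Hapln1 at 4.73 CPM in the 3 to 9 class and 123 in the 10 to 29 class, and Cxcl12 is at 107 CPM in the 3 to 9 class and 35.0 in the last.

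The 97 cells were not uniform. Per cell, Col2a1 ran from 276 to 23225 CPM with a median of 5314. Over the 97 cells its rank correlation (Spearman) was 0.84 with Hapln1 and Col9a3, 0.81 with Col9a1 and Col11a1, 0.66 with Acan and Papss2, 0.44 with Fgfr3 and 0.33 with Sox9, and it was -0.53 with Col3a1 and Aspn and -0.56 with Acta2. These points share 1 library, and CPM values of a cell share its total. The rank correlation with the GFP reporter was -0.35 and with Gapdh -0.02.

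**Figure D4:**
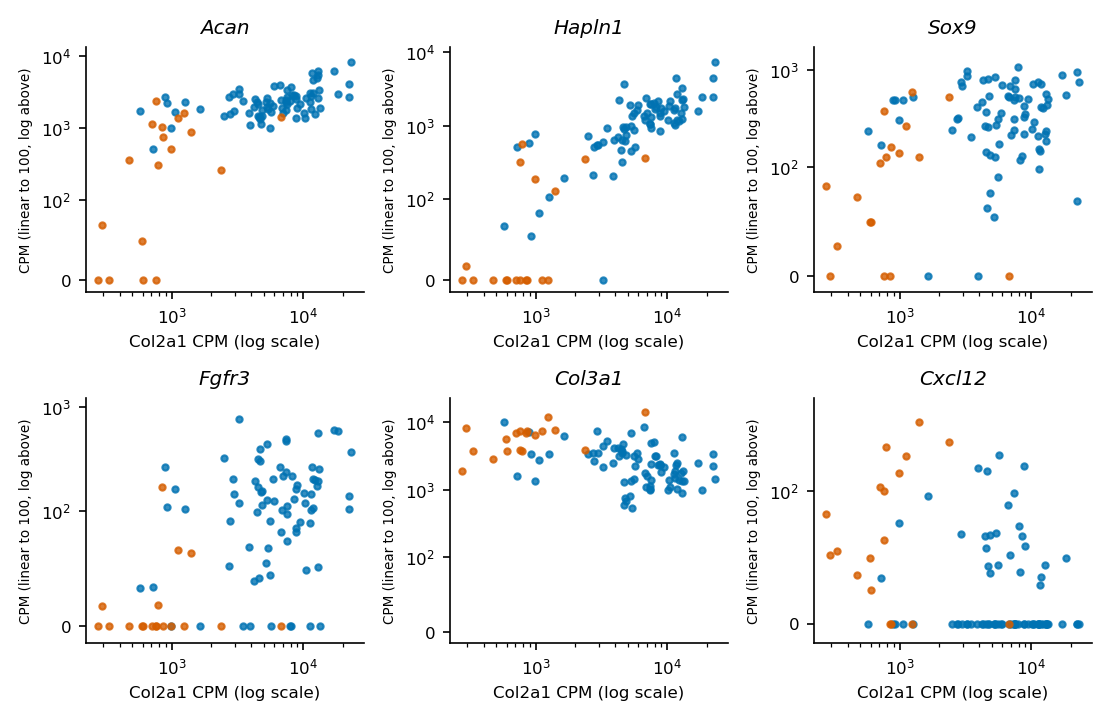
Each point is 1 of the 97 cells, with its Col2a1 CPM (horizontal axis, log scale) and its CPM of the gene named above the panel (vertical axis, linear to 100 and logarithmic above). Blue cells are in the cluster that holds most of the cells and orange cells are in other clusters, and Hapln1 was found in 7 and Acan in 14 of the 18 orange cells, of which many lie within the range of the blue cells for Acan.

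When all 11485 retained cells were clustered with 49 cartilage list genes, Col2a1 among them, left out of the 2000 variable genes, 79 of the 97 cells (81.4%, 72.3 to 88.6) fell into 1 cluster of 95 cells out of 13 clusters. This cluster had a median of 19993 UMIs and all 8 chondrocyte markers above their CPM in the remaining cells, and is called chondrocyte-like. The same 79 of 97 was the count at resolutions of 0.3 and 1. Its 16 other cells were 10 with 1 to 7 Col2a1 UMIs and 6 with none. The 6 cells without Col2a1 had 1342 CPM of Acan, 344 of Col9a3, 537 of Sox9 and 75.2 of Hapln1, and 4 of them held at least 4 of the 8 cartilage genes. These sums were uneven. The cell richest in each gene held 46 of 125 UMIs of Acan, 24 of 32 of Col9a3 and 23 of 50 of Sox9. Hapln1 had 7 UMIs in 3 of the 6 cells. The remaining 18 of the 97 cells were spread over 5 clusters, with 6 in a cluster led by mitosis genes such as Nusap1 and Cenpf, 6 in one led by Anxa8 and Tspan2, 4 in one led by Pi16 and Clec3b and 1 each in 2 more. They had a median of 16.5 Col2a1 UMIs (10 to 43) against 150 (12 to 647) in the 79, and 9 of the 18 held at least 4 of the 8 genes, against 79 of 79. Their Col1a1 was at 9249 against 5217 CPM, Acta2 at 1726 against 253 and Sox9 at 116 against 383. The clusters rest on the same cells, so these values are a description too.

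Outside the day 5 polytrauma library such cells were rare except in the library labelled d3 post-polytrauma. Among cells with at least 2000 UMIs, whatever their barcode, 10 or more Col2a1 UMIs were found in 0 of 3888 d0 cells (at most 0.0772%, the limit for a count of 0), in 1 of 5364 cells of d3 post-fracture (34 UMIs), in 0 of 6118 cells of the library labelled d5 post-fracture (at most 0.0490%), in 107 of 11517 of d5 post-polytrauma (0.929%) and in 202 of 1438 of the library labelled d3 post-polytrauma (14.05%, 12.3 to 16.0). The median depths were 3948, 18387.5, 15803, 16139 and 35427.5 UMIs, so a minimum of 10 UMIs asks for a higher level in the d0 cells than in the others. With 1 library per condition these shares were not tested, and with both labels in doubt the shares of the libraries labelled d5 post-fracture and d3 post-polytrauma cannot be assigned to a condition.

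The same comparison was made in the library labelled d3 post-polytrauma, over barcodes absent from the day 5 polytrauma library. The rule used that library only to leave out shared barcodes, not for its gene values. Of its 1438 cells with at least 2000 UMIs (median 35427.5), 574 had a barcode absent from the day 5 polytrauma library. The comparison held 46 cells with 10 or more and 225 cells with 0 Col2a1 UMIs, at median depths of 23045.5 and 17013 UMIs. It thus rests on a shallower remainder of that library. There 587 of 8023 genes past the minimum were higher (7.32%) and 856 were lower (10.7%). Of the 324 genes higher in the 97 cells, 287 passed the minimum there and 275 of these had a log2 ratio above 0. The higher genes of both libraries shared 184, which were 56.8% of those here and 31.3% of those there. The lower genes shared 376 (67.5% and 43.9%), and 2 genes were called in opposite directions. With shared barcodes kept there (202 and 392 cells), 237 higher and 453 lower genes were in common. All 7 collagen and link protein genes were higher in both. Hapln1 was at 550 against 7.18 CPM there, Acan at 2020 against 225, Fgfr3 at 101 against 4.71, Sox6 at 86.7 against 5.95 and Fgfr1 at 85.9 against 200. Cells with hematopoietic genes often held Col2a1 there. Of 22 cells with at least 2 such genes, 11 had a UMI of it (50%, 28.2 to 71.8), against 3.88% here. The part of free RNA in the Acan and Hapln1 values of its cells without Col2a1 was not tested. Cxcl12 was at 71.4 against 502 CPM and Cd34 at 4.01 against 127.

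The values of both libraries stood apart for some genes of maturation and division. Ihh and Col10a1 had 0 UMIs in the 46 cells there, which allows up to 2.41 CPM (3 counts), against 32.0 and 62.6 CPM in the 97 cells here, and Ibsp was at 81.0 against 59.9 CPM there. With shared barcodes kept, 202 cells there had 5.08 CPM of Ihh against 0.188 in the 392 cells without Col2a1, 9.86 against 0.657 of Col10a1 and 264 against 24.1 of Ibsp, with log2 ratios of 2.36 for Ihh and 2.71 for Col10a1. In the 97 cells Col10a1 was at 23.7 CPM without the cell richest in it. Panx3 (69.004 against 0.991 CPM), Sp7 (32.9 against 2.72) and Alpl (153 against 64.2) were higher in both libraries. In the library labelled d3 post-polytrauma 16 of 18 tested S-phase genes and 19 of 20 mitosis genes were higher, against 0 of 17 and 1 of 20 here. So were 9 of 18 glycolysis genes, against 0 of 17. Of all genes tested, 7.32% were higher there and 4.3% here. There 338 of 552 cells with fewer than 2 hematopoietic genes held a Col2a1 UMI (61.2%). The cells with 0 were thus a minority, shallower (median 17013 UMIs) than those with 10 or more (23045.5). The part of depth and of this choice of cells in these counts was not tested. Mki67 was at 119 against 26.5 CPM there, and at 101 and 83.8 here, so that the levels differed most between the cells without Col2a1 of both libraries. The difference between the libraries was not tested.

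**Figure D5:**
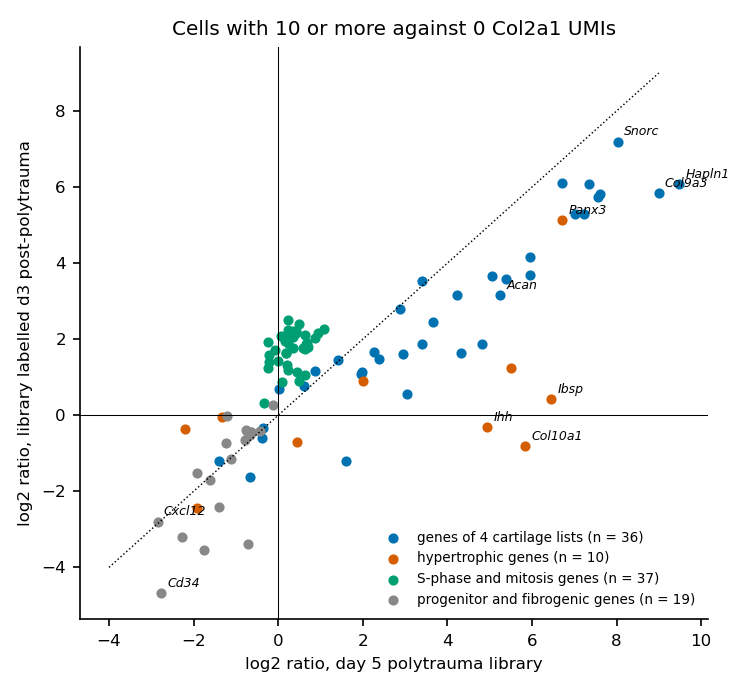
Log2 ratio of CPM + 1 between cells with 10 or more and 0 Col2a1 UMIs in the day 5 polytrauma library (horizontal axis) and in the library labelled d3 post-polytrauma (vertical axis), for list genes tested in the first, with equality as a dotted line. Of the genes on 4 cartilage lists (blue), Fgfr1, Bmpr1a, Acvr1 and Wnt5a are below 0 in both, Bmp2 is below 0 on the vertical axis only and the others are above 0 in both, S-phase and mitosis genes (green) are past 1 mostly on the vertical axis, and Ihh and Col10a1, without a UMI in the 46 cells of the other library, are high on the horizontal axis.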

How the data were processed

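The authors sorted GFP+ cells, prepared 10x Chromium 3′ libraries, aligned reads to mm10 and counted UMIs with Cell Ranger (version 3.1.0 in the matrix headers). The deposited values are raw counts of UMIs per gene and barcode, with 1 library per condition and 31055 features. The Col2a1-expressing cells and the gene lists were chosen with earlier results of these data known, so no list is independent support. UMIs of the cells in each group were summed and scaled to CPM with a pseudocount of 1 CPM. Cells were thinned by drawing 2000 UMIs without replacement. Intervals (95%) are exact Poisson for CPM, exact conditional binomial for ratios and exact Clopper-Pearson for shares, a count of 0 is limited by 3 counts, and all cover counting error only. The named genes were all genes of the cartilage lists, at most 4 per other list by level or fold, and the 15 highest and 12 lowest ratios without Col2a1 and unnamed gene models. Where a cell type list is accounted for in full, more of its genes are named. Doublets were scored with Scrublet (scanpy 1.11.5). The highest scores, at a rate of 0.8% per 1000 cells, were left out only as an alternative. Clusters came from Seurat 5.3.0 (R 4.3.3) at resolution 0.5 on 20 components of 2000 variable genes. Positions are from GENCODE M21, which lists 30934 of 31055 identifiers. Sums and intervals were computed in Python 3.11.15 (pandas 2.3.3, scipy 1.17.1, numpy 2.4.6), and plots with matplotlib 3.10.9. Some genes of the Schwann cell list are not reported here. The calculation was tested on simulated data.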

Additional observations from a re-analysis of the deposited data

Results flagged for a closer look

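Barcodes that the day 5 polytrauma library shared with the library labelled d3 post-polytrauma were left out of the report, and Col2a1 was more frequent in them than in the cells that were described. Of 32 shared barcodes past the other limits, 10 held at least 10 Col2a1 UMIs (31.3%, exact binomial 95% interval 16.1 to 50.01), against 0.845% of the 11485 retained cells. All 10 held more UMIs in the other library, with medians of 2239 UMIs here and 111754 there and of 26.5 and 1252.5 Col2a1 UMIs. What part of these UMIs comes from cells of each library cannot be told apart.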

How the results depend on the processing

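No paired analysis was possible because each condition has 1 library, and leaving out a replicate was not possible for the same reason. With cells of at least 2 mitosis genes (mitosis-positive) left out, 17 of the 97 cells remained, with 734 genes higher and 1069 lower. Thinning to 2000 UMIs gave 725 and 1037 (1620 higher in the library labelled d3 post-polytrauma), a minimum of 1 CPM gave 646 and 1261, and a minimum of 50 CPM gave 126 and 185. Fewer UMIs enter the first 2 of these and other genes the last 2. All 29 genes called higher on the 4 cartilage lists without Col2a1 and the hypertrophic genes were called higher in each alternative but the minimum of 50 CPM, which kept 21. Mmp13 turned to a log2 ratio of 0.15 after thinning, and the cause was not tested. Aurka turned to -0.46 without mitosis-positive cells, but it is itself on the mitosis list that defines them. Of 73 called genes followed by name, 5 fell under the fold in at least 1 alternative, Mmp13, Vegfa, Col3a1, Aurka and Tnmd. Leaving out the cell richest in each gene was chosen after seeing the data. With 1 pool of 2 mice, no value has a replicate, and transcripts at a median of 1 UMI or less per cell are limited by depth.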
